A study of Mus musculus with 26 samples.

Results

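The genes Prph2, Rom1, Abca4, Prom1, Rp1, Impg1, Impg2 and Tulp1, whose products build, shape or surround the photoreceptor outer segment, were followed in 5 experiments. They were taken by symbol and make up 8 of the 37991 genes in the table of read counts; each symbol belonged to 1 Ensembl identifier, and all 8 passed the filter on low counts in every comparison. The mice were rd10 (B6.CXB1-Pde6brd10/J), which carry a mutation in Pde6b, the beta subunit of rod phosphodiesterase, and lose their rods after birth. They were injected intraperitoneally from postnatal day (PN) 9, and retinas were collected at PN24. Whole retinas came from 4 experiments, each with its own saline controls: 4 controls and 2 retinas treated with DZNep, 3 and 3 with UNC1999, 2 and 2 with UNC0642, and 3 and 3 with Romidepsin. DZNep and UNC1999 are inhibitors of the histone methyltransferase EZH2, UNC0642 inhibits the H3K9 methyltransferases G9a and GLP, and Romidepsin inhibits histone deacetylases. The remaining experiment used rods sorted by fluorescence from rd10 mice crossed to B6.Cg-Tg(Nrl-EGFP)1Asw/J, in which the Nrl promoter drives EGFP in rods: 2 samples of saline-injected mice and 2 of mice treated with GSK2879552, an inhibitor of the demethylase LSD1. All 26 samples therefore carry the rd10 mutation, and no wild-type retina was among them. UNC1999 was dissolved in a DMSO, PEG and Tween mixture with saline; its controls are called saline-injected in the labels and in part of the study's text, and diluent-injected elsewhere in it. The labels give daily injections for all inhibitors, although for DZNep the study also describes a sparser schedule after the first days. The labels call the samples biological replicates without saying whether each was 1 animal.

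The outer segment is a stack of membrane discs that grows out of a modified cilium and is renewed throughout life. Prph2 (peripherin 2) and its partner Rom1 are tetraspanins that form the hairpin rims of the discs. Abca4 sits in the same rims and flips retinal conjugates across the disc membrane. Prom1 (prominin 1) acts where new discs evaginate at the base of the segment, and Rp1 is a microtubule protein of the axoneme that keeps discs in register. Tulp1 is a tubby-like protein of the inner segment needed for transport towards the outer segment. Impg1 and Impg2 are proteoglycans of the interphotoreceptor matrix, the gel that surrounds the outer segments and faces the retinal pigment epithelium (RPE). Mutations in these genes are linked to inherited retinal disease.

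In the NCBIM37 build used for counting, Prph2 (ENSMUSG00000023978) lies on chr17:47047408-47061882, Rom1 (ENSMUSG00000071648) on chr19:9001872-9003846, Abca4 (ENSMUSG00000028125) on chr3:121747361-121882979 and Prom1 (ENSMUSG00000029086) on chr5:44384864-44493271. Rp1 (ENSMUSG00000025900) lies on chr1:4334224-4350473, Impg1 (ENSMUSG00000032343) on chr9:80161137-80359045, Impg2 (ENSMUSG00000035270) on chr16:56204426-56273869 and Tulp1 (ENSMUSG00000037446) on chr17:28488460-28502127. An annotated gene on the opposite strand overlaps Abca4 and another overlaps Prom1; whether the counting used strand is not given in the sources used here, so reads of these pairs cannot be told apart. The other 6 genes overlap no annotated gene.

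All genes but Rp1, 7 of the 8, had an entry in the table of RefSeq promoters (GRCm38.p6), with 2 starts for Prom1. The promoters of 5 genes are printed because they let the disc rim pair, the rim flippase and the 2 matrix proteoglycans, which differ in their changes below, be set side by side. Each is the 250 bases before the annotated start, 5′ to 3′ on the strand of the gene. Capitals mark matches on either strand to TAATC, the short core recognized by the photoreceptor homeodomain protein CRX, to its longer form TAATCC, which contains that core, or to the variant TAAGCC.
Prph2, chr17:46910228-46910477 (plus strand): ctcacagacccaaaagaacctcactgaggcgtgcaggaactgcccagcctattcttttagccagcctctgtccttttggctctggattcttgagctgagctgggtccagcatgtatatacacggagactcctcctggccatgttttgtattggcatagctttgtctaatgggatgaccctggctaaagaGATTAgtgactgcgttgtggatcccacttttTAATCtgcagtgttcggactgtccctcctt
Rom1, chr19:8929357-8929606 (minus strand): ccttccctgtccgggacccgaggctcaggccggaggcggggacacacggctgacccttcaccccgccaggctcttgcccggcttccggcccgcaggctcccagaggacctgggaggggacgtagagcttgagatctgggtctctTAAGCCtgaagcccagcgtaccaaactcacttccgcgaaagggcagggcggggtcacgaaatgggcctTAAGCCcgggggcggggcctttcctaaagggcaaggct
Abca4, chr3:122044210-122044459 (plus strand): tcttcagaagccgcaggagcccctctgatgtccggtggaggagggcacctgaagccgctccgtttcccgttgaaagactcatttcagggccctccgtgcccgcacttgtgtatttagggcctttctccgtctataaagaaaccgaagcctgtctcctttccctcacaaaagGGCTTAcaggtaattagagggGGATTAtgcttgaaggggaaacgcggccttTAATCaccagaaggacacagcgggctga
Impg1, chr9:80465439-80465688 (minus strand): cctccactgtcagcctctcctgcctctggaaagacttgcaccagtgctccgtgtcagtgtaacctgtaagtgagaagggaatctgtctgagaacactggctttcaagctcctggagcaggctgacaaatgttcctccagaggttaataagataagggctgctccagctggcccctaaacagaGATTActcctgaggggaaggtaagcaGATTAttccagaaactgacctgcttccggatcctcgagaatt
Impg2, chr16:56204063-56204312 (plus strand): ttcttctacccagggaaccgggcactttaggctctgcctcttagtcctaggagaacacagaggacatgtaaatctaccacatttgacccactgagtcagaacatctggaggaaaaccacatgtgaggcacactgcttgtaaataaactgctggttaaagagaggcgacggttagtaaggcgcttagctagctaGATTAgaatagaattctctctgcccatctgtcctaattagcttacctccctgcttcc

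Abca4 held the one match to TAATCC among the 8 starts, 58 to 53 bases before the start. The variant TAAGCC was found at 2 places in Rom1, at 1 in Abca4 and at 1 before the second start of Prom1. The 5-letter core stood at 2 places in each of Prph2, Abca4 and Impg1, at 1 in Impg2 and at 1 before the second start of Prom1. No match lay in the windows of Tulp1 or of the first start of Prom1. TGCTGA, one side of the palindrome bound by the rod factor NRL, was in none of the 8 windows. Over all 32817 promoters of this length, 6.25% held TAATCC, 8.2% TAAGCC, 19.8% TAATC and 16.1% TGCTGA; the 5-letter core was added after the longer letters had been searched. These matches are letters in a window, and no binding was measured.

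**Figure D1:**
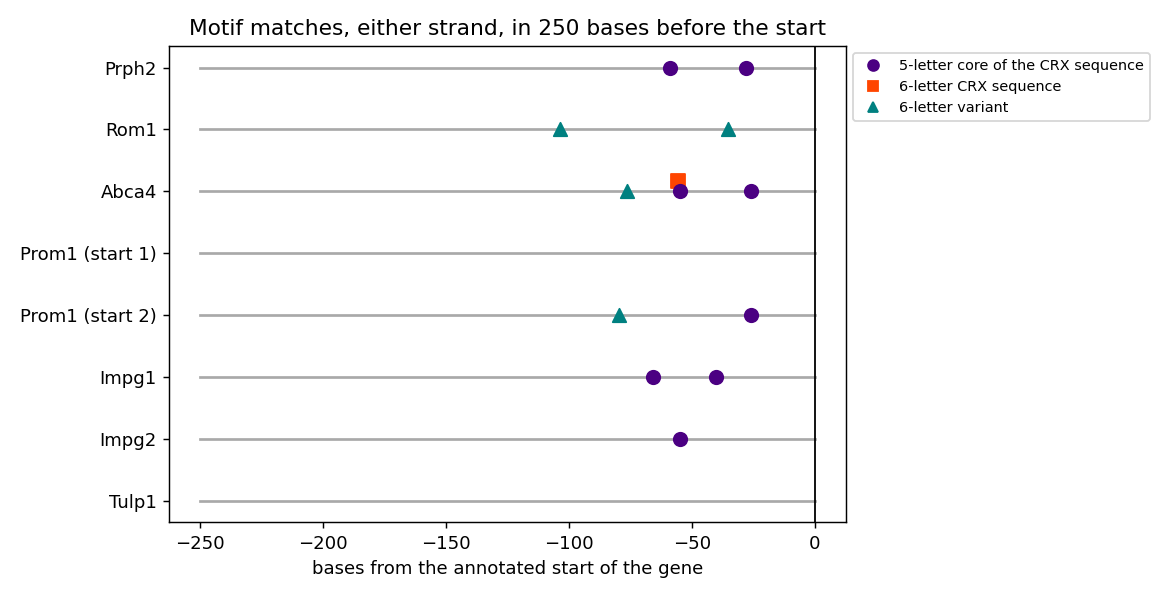
Matches to TAATC (circles), TAATCC (square) and TAAGCC (triangles) along the 250 bases before the annotated start of 7 of the genes; the horizontal axis gives bases from the start, and Prom1 has 2 starts. Matches lie within 106 bases of the start wherever there is one, and Tulp1 and the first start of Prom1 have none.

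Levels are given in CPM (read counts scaled to a common library total) scaled by TMM factors, which correct for differences in the make-up of the libraries. Between 13732959 and 36354094 reads were counted per retina and between 7289460 and 19864491 per sample of sorted rods. The 8 genes are abundant: their smallest count in any library was 2180, for Impg1 in a sample of sorted rods. Counting error is therefore small beside the spread between samples. A gene is said to rise or fall when its Benjamini-Hochberg adjusted p-value in edgeR's quasi-likelihood test was under 0.05 over all genes of that comparison.

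In the 12 control retinas, Prph2 was the most abundant of the 8 per length. Its level per kb of exon ran from 269 to 1042 CPM with a median of 608. Rom1 followed with 297 to 885 CPM per kb and a median of 542, and Prph2 was above Rom1 in 10 of the 12 retinas. The axonemal Rp1 came next with a median of 109 CPM per kb, below Rom1 in each of the 12. Tulp1 (median 95.4 CPM per kb) and Prom1 (92.7) changed places from retina to retina, Tulp1 being the higher in 5 of 12. Impg1 (57.3), Impg2 (42.5) and Abca4 (40.6) were the lowest, and Impg2 and Abca4 stood in either order in 6 retinas each. The order of the lower genes depends on which exons are taken as their length. Per kb of the longest coding transcript, Tulp1 moved up to the place after Rom1 with 293 CPM per kb and Abca4 passed both proteoglycans with 66.1, while Prph2 and Rom1 kept the first and second places.

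The control retinas of the 4 experiments were not alike. Both UNC0642 controls lay below all 10 other controls for 7 of the 8 genes, the exception being Impg2; 7.51% of all genes did so. Prph2, for instance, was at 808 and 809 CPM in these 2 retinas on the scale common to all libraries, against 1299 to 3127 CPM in the other controls. The UNC1999 retinas, controls and treated ones together, form a library series of their own. The UNC1999 controls lay above the 9 others for Impg1 and Impg2, as they did for 10.4% of all genes. Impg2 was at 794 to 845 CPM there and at 316 to 472 CPM in the 9 other control retinas. For this reason each treatment is compared only with its own controls.

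**Figure D2:**
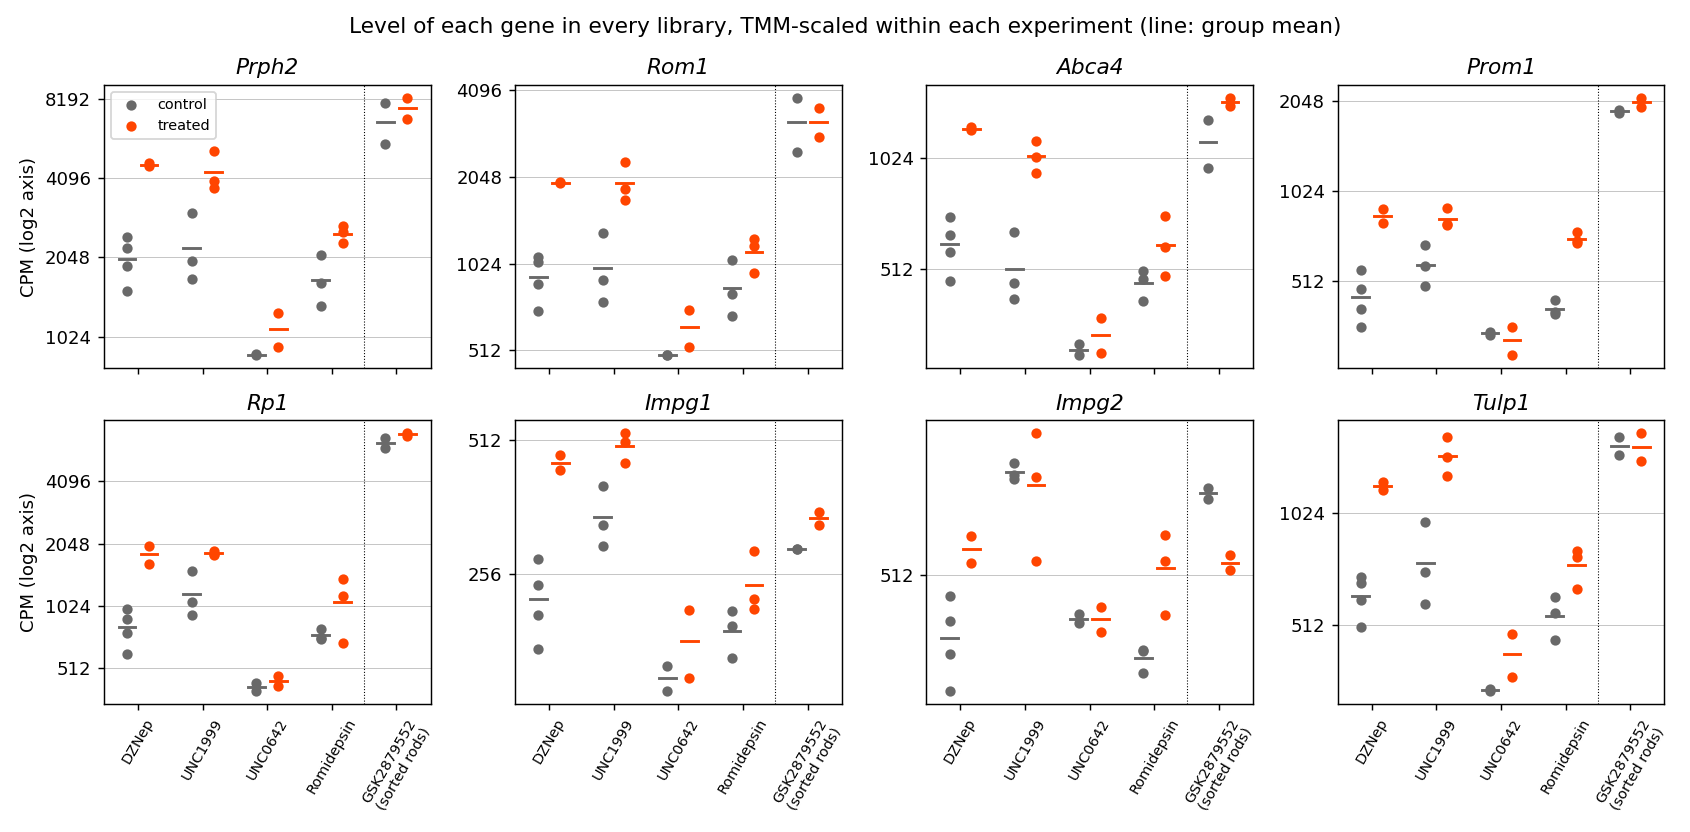
Level of each gene in every library, in CPM on a log2 axis scaled within each experiment, for controls (grey) and treated samples (orange); horizontal lines are group means. The 2 DZNep retinas lie above all 4 controls in every panel, whereas the groups overlap for Impg2 in the UNC1999 experiment and for Prph2, Rom1 and Tulp1 in the sorted rods (right of the dotted line).

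DZNep was the one treatment under which all 8 genes rose by this test. Log2 fold changes were 0.90 to 1.19 in 7 of them and smaller in Impg2. All 8 had both treated retinas above the 4 controls, against 24.4% of the 16477 genes tested, and all 8 passed the test, against 12.9% of genes that were called higher. Their median log2 fold change was 1.03, and that of all genes was 0.00.

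Prph2 was at 2444, 1895, 2223 and 1525 CPM in the DZNep controls and at 4685 and 4552 CPM after treatment. The rise was 2.28-fold (log2 fold change 1.19 ± 0.156 SE, adjusted p = 0.00149). The treated pair was close together, while the controls spread widely and control 4 was the lowest for each of the 8 genes. Rom1, the partner of Prph2, stood at 1079, 871, 1040 and 701 CPM in controls and at 1962 and 1941 CPM in treated retinas (1.08 ± 0.146, adjusted p = 0.00171). The flippase Abca4 went from 709, 570, 634 and 476 CPM to 1218 and 1240 CPM (1.04 ± 0.128, adjusted p = 0.00125). These 3 disc rim genes thus rose by nearly the same factor.

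The axonemal Rp1 rose from 996, 759, 886 and 602 CPM to 2007 and 1638 CPM (1.17 ± 0.170, adjusted p = 0.00224). Prom1, of the nascent discs, rose from 358 to 558 CPM in controls to 888 and 802 CPM (0.90 ± 0.146, adjusted p = 0.00357). Tulp1 had the smallest adjusted p of the 8, with 689, 596, 662 and 506 CPM in controls and 1237 and 1174 CPM after DZNep (0.98 ± 0.108, adjusted p = 0.000940). In all 3 the treated retinas were clear of the highest control. The 2 proteoglycans parted company. Impg1 rose from 174 to 277 CPM in controls to 474 and 439 CPM (1.02 ± 0.148, adjusted p = 0.00219). Impg2 rose from 469, 368, 422 and 315 CPM to 602 and 539 CPM only (0.54 ± 0.133, adjusted p = 0.0214), its lower treated value standing close to the highest control. The call for Impg2 was lost when control 2 or either treated retina was left out, with adjusted p between 0.0566 and 0.167. With the study's threshold of 1 on the log2 scale added, 5 of the 8 genes passed. No share over all genes is given for that rule, so this count has no background here.

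The wider rod programme rose as well. Of 22 other genes of the outer segment and its cilium, all 22 had positive log2 fold changes after DZNep and 19 rose. The smallest change was that of Rpgr, a protein of the connecting cilium (0.04, adjusted p = 0.776), which like Spata7 and Crb1 did not pass. The median of the 22 was 0.59. Of 25 rod genes 24 rose, with a median of 1.08, the exception being Samd7 (0.34). Among relatives of the 8 genes in the same protein families, 2 of 21 tested rose and 4 fell, with a median of 0.03. Rp1l1, the photoreceptor relative of Rp1 (0.88, adjusted p = 0.00246), and Tub (0.58), a relative of Tulp1, were the ones that rose. The cholesterol transporter Abca1 (-0.61, adjusted p = 0.00121), Abca8a (-0.58), Tulp3 (-0.38) and the tetraspanin Cd9 (-0.26) were the ones that fell. Of 13 other genes of the interphotoreceptor matrix and its interface with the RPE, 3 rose, among them the retinoid-binding Rbp3 (0.98) and Gas6 (0.39), and 5 fell, from Mertk (-0.29), the receptor for outer segment uptake, to the hyaluronan receptor Cd44 (-1.25, adjusted p = 0.000196). In a whole retina, a change in the number of rods and a change in RNA per rod cannot be told apart. Markers of other cells moved too: the summed level of 20 microglial genes was 359 to 738 CPM in controls and 280 and 314 CPM after DZNep, with Lyz2, Mpeg1 and Ptprc falling, and 10 of 14 Müller glia genes fell (summed level 12024 to 12464 CPM in controls and 8501 and 9362 CPM after DZNep). Of 20 RPE genes 9 rose, from Krt18 (0.93) to Rgr (2.01, from a mean of 18.1 CPM to 73.4 CPM), and Trpm1 and Rlbp1 fell. The RPE sum was 1267 to 1431 CPM, and then 1231 and 1477 CPM. Most of it came from Rlbp1 and Trpm1 (means of 670 and 386 CPM in controls), which are also on the Müller glia and inner neuron lists. The sum therefore says little about the 9 genes that rose. Of the 13 genes on the cone list Gucy2f rose, by 1.08, which was also the median of the 25 rod genes. Arr3, Pde6c, Gnb3 and Slc24a2 fell (sum of the cone list 3089 to 3456 CPM, and then 2698 and 2823 CPM). All 22 genes of inner retinal neurons had lower values and 11 of them fell (median -0.26, sum 5319 to 6282 CPM, and then 4920 and 4950 CPM). No gene of these 5 lists was at 0 in all libraries of a group. Lens genes summed to 89.0 CPM in treated retina 2, against 5.83 CPM in treated retina 1 and 7.63 to 9.02 CPM in controls. Cryaa (5.78, adjusted p = 0.0162) and Crybb2 (3.84, adjusted p = 0.0391) rose, with overlapping groups. The part of these other cells and tissues in the changes of the 8 genes was not tested.

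**Figure D3:**
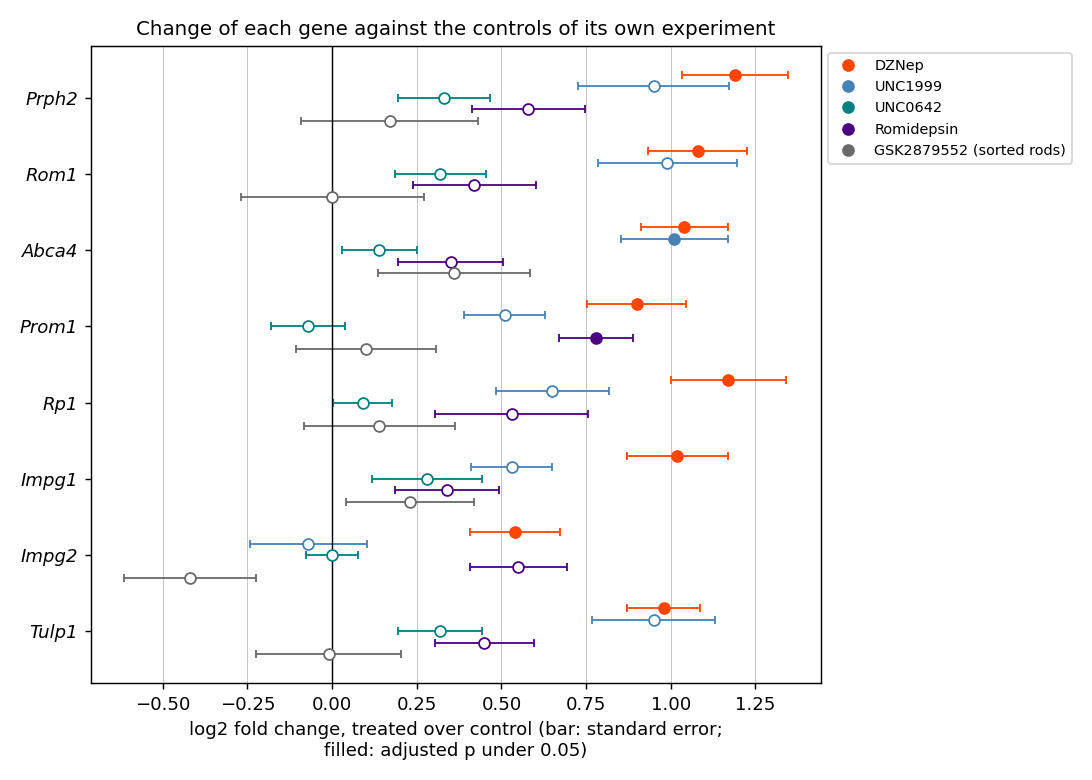
Log2 fold change of each gene against the controls of its own experiment, with its standard error; filled points have an adjusted p under 0.05. All 8 points for DZNep are filled, 1 for UNC1999 (Abca4) and 1 for Romidepsin (Prom1), and Impg2 is the gene whose points reach furthest to the left.

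UNC1999, the other EZH2 inhibitor, gave changes of similar size in the disc rim genes, but with a larger spread between retinas. All genes but Impg2, 7 of the 8, had the 3 treated retinas above the 3 controls, against 13.9% of the 15775 genes tested. One passed the test, Abca4, against 0.501% of genes called higher. The median log2 fold change of the 8 genes was 0.80, beside 0.00 for all genes.

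Abca4 was at 469, 424 and 644 CPM in controls and at 1141, 1028 and 933 CPM after UNC1999 (1.01 ± 0.158, adjusted p = 0.0468). Prph2 was at 1992, 1691 and 3015 CPM in controls and at 5190, 3758 and 3992 CPM in treated retinas (0.95 ± 0.223, adjusted p = 0.0667). Rom1 was at 896, 754 and 1302 CPM and then at 2302, 1706 and 1855 CPM (0.99 ± 0.205, adjusted p = 0.0582). Control 3 was the highest control for 7 of the 8 genes, and treated retina 1 was the highest treated one for 6. Tulp1 had a mean of 752 ± 195 CPM (SD, n = 3) in controls and of 1454 ± 172 CPM (SD, n = 3) in treated retinas (0.95, adjusted p = 0.0533). Changes were smaller in Rp1 (0.65, adjusted p = 0.0780), Impg1 (0.53, adjusted p = 0.0611) and Prom1 (0.51, adjusted p = 0.0662). These 6 genes were above their controls in every treated retina without passing the quasi-likelihood test.

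How many genes passed here turned on the test and on single libraries. The likelihood ratio test, which the study used, and DESeq2 each called 7 of the 8, and a fit of all 22 retinas called 6; these settings called 5.32%, 4.94% and 4.15% of all genes higher. Without control 3 the quasi-likelihood test called 7 (median log2 fold change 1.03) and 8.31% of all genes higher; without any other library of this experiment it called 0, Abca4 then having adjusted p up to 0.189.

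Impg2 stood apart from the rest after UNC1999. It was at 817, 766 and 778 CPM in controls and at 542, 927 and 773 CPM in treated retinas (-0.07 ± 0.172, adjusted p = 0.829). The groups overlapped, and the treated retina with the most Prph2, Rom1, Abca4, Prom1, Impg1 and Tulp1 was the one with the least Impg2. Without that retina the log2 fold change of Impg2 was 0.11.

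Among the 22 other outer segment genes 20 had positive changes after UNC1999 and none passed the quasi-likelihood test, although 19 had an unadjusted p under 0.05 (median 0.55, with the lowest value, -0.03, in the flippase subunit Tmem30a). The 25 rod genes behaved alike, with a median of 0.92 and none passing. Of 19 RPE genes tested, 10 rose. The summed level of all 20 genes of the RPE list went from 966 to 1253 CPM in controls to 1549 to 1748 CPM. Most of the control sum came from Rlbp1, Trpm1 and Krt18 (means of 448, 283 and 158 CPM), none of which passed. The microglial sum went from 378 to 670 CPM to 220 to 286 CPM, with Lyz2 and Cst7 falling. No gene of either list was at 0 in all libraries of a group, and the part of these cells in the changes was not tested.

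After Romidepsin, Prom1 was the one gene of the 8 that rose. Prom1 was at 402, 397 and 441 CPM in controls and at 696, 683 and 744 CPM in treated retinas (1.71-fold, log2 fold change 0.78 ± 0.109, adjusted p = 0.0277). Both groups were tight, and 0.573% of 16049 genes were called higher. The other 7 genes had log2 fold changes between 0.34 and 0.58 without passing. In all, 5 genes (Prph2, Prom1, Impg1, Impg2 and Tulp1) had groups that did not overlap, against 13.5% of genes tested, and the median of the 8 was 0.49. The call for Prom1 held without treated retina 1 or 2 and was lost without each other library, with adjusted p between 0.0651 and 0.131.

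Prph2 was at 1631, 1340 and 2092 CPM in the Romidepsin controls and at 2686, 2552 and 2331 CPM after treatment (0.58 ± 0.167, adjusted p = 0.113). Rom1 was at 805, 671 and 1050 CPM and then at 1248, 1177 and 950 CPM (0.42 ± 0.182, adjusted p = 0.253), so that its groups overlapped where those of Prph2 did not. Impg2 went from 372, 374 and 339 CPM to 544, 433 and 606 CPM (0.55 ± 0.143, adjusted p = 0.0923), and the likelihood ratio test and DESeq2 called it, among 4.09% and 3.51% of all genes called higher.

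Rp1 was uneven between the Romidepsin-treated retinas. It stood at 792, 709 and 722 CPM in controls and at 1146, 683 and 1384 CPM after treatment (0.53 ± 0.227, adjusted p = 0.245). Treated retina 2 lay below every control for Rp1, although its Prph2 and Prom1 were above all controls. Without it the log2 fold change of Rp1 was 0.77 (adjusted p = 0.0315), and 3 of the 8 genes passed, with 1.31% of all genes called higher. Abca4 (0.35), Impg1 (0.34) and Tulp1 (0.45) had adjusted p of 0.268, 0.263 and 0.136. Of the 22 other outer segment genes 17 had positive changes (median 0.38), and the ciliary kinase Mak rose (0.69); the range went from the cell polarity gene Crb1 (-0.50, adjusted p = 0.139) to Fscn2, a photoreceptor actin-bundling protein (0.74, adjusted p = 0.0793). Of 13 cone genes 12 had lower values, with a median of -0.72 and none passing, and the summed cone level was 2083 to 2712 CPM in controls and 1600 to 2114 CPM in treated retinas. All 22 inner neuron genes had lower values too, with Grm6 falling (sum 5431 to 6073 CPM in controls and 4367 to 4649 CPM in treated retinas). Of 20 microglial genes 19 had lower values, with Mpeg1 and Ctss falling (sum 670 to 1094 CPM, and then 520 to 725 CPM). Lower values were also found for 11 of 14 Müller glia genes (sum 11884 to 13953 CPM, and then 8656 to 9882 CPM) and for 16 of 19 RPE genes tested (sum of the RPE list 1198 to 1313 CPM, and then 814 to 932 CPM), none of which passed. Most of the RPE sum came from Rlbp1 (means of 646 and then 408 CPM) and Trpm1 (404 and then 257 CPM). These are also on the Müller glia and inner neuron lists. Krt18 went the other way (87.1 and then 156 CPM). The sum therefore says little about the other RPE genes. No gene of these 5 lists was at 0 in all libraries of a group, and their part in the changes was not tested.

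With UNC0642 none of the 8 genes passed the quasi-likelihood test, as was true of all 16321 genes tested (0.00% called higher). The likelihood ratio test called 98 genes higher and 47 lower and DESeq2 99 and 57, none of the 8 among them. An unadjusted p under 0.05 was found for Prph2 and Tulp1, with no share over all genes given for such values. Of the 25 rod genes 6 had one too, with positive changes. Both treated retinas lay above both controls for 3 genes, Prph2, Rom1 and Tulp1, a share of the 8 to be read beside 26.9% of all genes. The median log2 fold change of the 8 was 0.21, and that of the 25 rod genes was 0.21 too.

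Prph2 was at 869 and 877 CPM in controls and at 937 and 1260 CPM after UNC0642 (0.33 ± 0.136, adjusted p = 0.337). Rom1 was at 495 and 492 CPM and then at 527 and 706 CPM (0.32 ± 0.134, adjusted p = 0.342). Tulp1 was at 346 and 341 CPM and then at 372 and 485 CPM (0.32 ± 0.124, adjusted p = 0.336). The controls were nearly equal to each other, and treated retina 2 was above treated retina 1 for all 8 genes. Without treated retina 1 the median of the 8 was 0.39, and without treated retina 2 it was 0.00. Impg1 (0.28), Abca4 (0.14) and Rp1 (0.09) had overlapping groups, as had Impg2 (0.00 ± 0.0777, adjusted p = 0.987) and Prom1 (-0.07 ± 0.109, adjusted p = 0.760). When genes with low counts were kept in the test, Prph2, Rom1 and Tulp1 passed, with adjusted p of 0.0250, 0.0349 and 0.0327, while 443 of 23117 genes (1.92%) were called higher and 609 lower.

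The 4 treatments were then compared with each other, as differences between their changes in 1 fit of the 22 retinas. No pair of treatments differed in any of the 8 genes by the quasi-likelihood test. At an unadjusted p under 0.05 there were 8 of 8 genes between DZNep and UNC0642, 5 between DZNep and Romidepsin, 4 between UNC1999 and UNC0642, 3 between UNC1999 and Romidepsin, 2 between Romidepsin and UNC0642 and 1 between DZNep and UNC1999. The likelihood ratio test called 1 gene between DZNep and UNC0642 and 1 between Romidepsin and UNC0642. For these unadjusted counts and likelihood ratio calls no share over all genes is given, so they have no background here. The shares that follow count genes that passed after adjustment. They are to be read only beside the absence of such calls among the 8 genes. Over all 17274 genes the shares called were 0.0232% between DZNep and UNC0642, 0.289% between DZNep and Romidepsin, 0.0116% between UNC1999 and UNC0642, 5.11% between UNC1999 and Romidepsin, 0.0174% between Romidepsin and UNC0642 and 0.00579% between DZNep and UNC1999.

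The smallest adjusted p belonged to Abca4, whose change was larger after UNC1999 than after Romidepsin by 0.67 ± 0.226 on the log2 scale (adjusted p = 0.0943). For Prom1 the difference was 0.85 ± 0.213 between Romidepsin and UNC0642 (adjusted p = 0.106) and 0.98 ± 0.217 between DZNep and UNC0642 (adjusted p = 0.114). Between the 2 EZH2 inhibitors the differences were 0.03 for Abca4 and Tulp1, 0.10 for Rom1 and 0.25 for Prph2. They were larger for Prom1 (0.39), Impg1 (0.49), Rp1 (0.52) and Impg2 (0.61 ± 0.231, adjusted p = 0.410). None passed, so these data do not separate DZNep from UNC1999 for any of the genes, with standard errors of 0.195 to 0.301.

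Because the rod transcripts moved together, each gene was also measured against them, by scaling the libraries to the mean log2 CPM of 25 rod genes. On that scale no gene but Impg2 differed from the rod list by the test in any experiment, with no unadjusted p under 0.05. After DZNep the values of the other 7 ran from -0.15 (Prom1) to 0.14 (Prph2). Impg2 fell relative to the rod list after DZNep, by 0.52 ± 0.236 (adjusted p = 0.0301), and after UNC1999, by 0.97 ± 0.242 (adjusted p = 0.000715). Most genes of the retina fell on this scale, 91.0% in the DZNep and 82.3% in the UNC1999 experiment, with medians over all genes of -1.09 and -0.93. The value of Impg2 was thus between 0 and the median gene after DZNep and near the median gene after UNC1999. The call after DZNep was lost without control 2, control 3 or either treated retina (adjusted p from 0.0641 to 0.200). After UNC0642 and Romidepsin no gene passed relative to the rod list, and the value of Impg2 was -0.22 and 0.15. Prom1 had the highest value of the 8 after Romidepsin (0.40 ± 0.254, adjusted p = 0.278) and a value of -0.39 ± 0.246 after UNC1999 (adjusted p = 0.127), where that of Impg2 was lower.

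**Figure D4:**
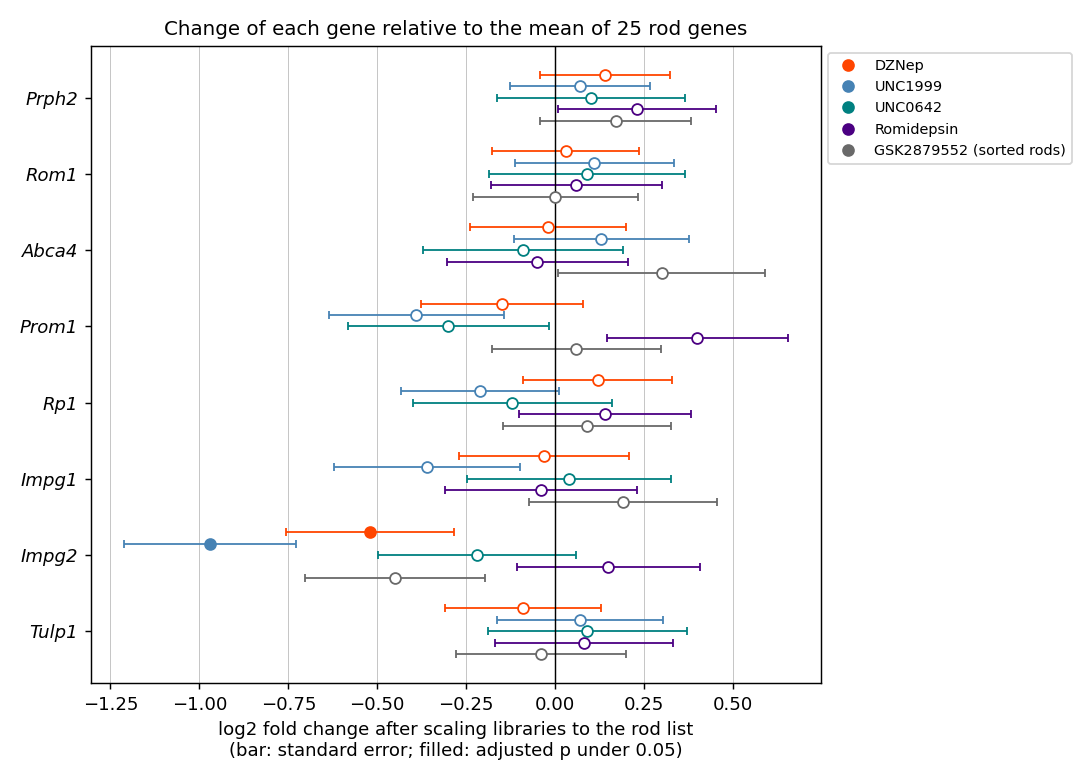
Log2 fold change of each gene after the libraries were scaled to the mean of 25 rod genes, with its standard error; filled points have an adjusted p under 0.05. Most points lie near 0, and the filled ones are Impg2 after DZNep (-0.52) and after UNC1999 (-0.97).

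Likeness between libraries was described next. As deviations from the mean of the own experiment over the 22 retinas, the log2 CPM of 7 genes followed the mean of the other members with Pearson's r between 0.915 (Rp1) and 0.970 (Prph2), and Impg2 with 0.522. Among the 5 genes outside the list whose deviations were most like the mean of the 8, of 15367 genes compared, were Cnga1 (0.990), the rod channel subunit, Pde6a (0.985), the alpha subunit of rod phosphodiesterase, the photoreceptor transcription factor Crx (0.981) and the rod exchanger Slc24a1 (0.978). These libraries share experiments and treatments, so the values are a description.

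Prph2 and Rom1 assemble with each other, and the ratio of their levels per kb ran from 0.891 to 1.25 over the 22 retinas. It was 1.09 to 1.15 in the DZNep controls and 1.19 to 1.21 after DZNep. After Romidepsin it was 1.09 to 1.25, against 1.01 to 1.03 in controls. The ratio of Impg2 to Impg1 varied more, from 0.394 to 1.20. It was 0.655 to 0.701 in controls and 0.474 to 0.491 in treated retinas with DZNep, and 0.744 to 0.998 and then 0.394 to 0.704 with UNC1999. With Romidepsin it was 0.618 to 0.872 in controls and 0.729 to 1.04 in treated retinas, and with UNC0642 it was 1.02 to 1.20 and then 0.812 to 1.04, the groups overlapping in both. In sorted rods the ratio of Prph2 to Rom1 was 1.05 to 1.13 in controls and 1.19 to 1.24 after GSK2879552. That of Impg2 to Impg1 was 0.933 to 0.976 and then 0.608 to 0.611. Where groups did not overlap, exact two-sided permutation tests gave p = 0.133 with DZNep, 0.100 with UNC1999 and Romidepsin and 0.333 with GSK2879552. These are the smallest values that 4 against 2, 3 against 3 and 2 against 2 samples allow. No adjusted p over the 10 tests was below 0.333.

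**Figure D5:**
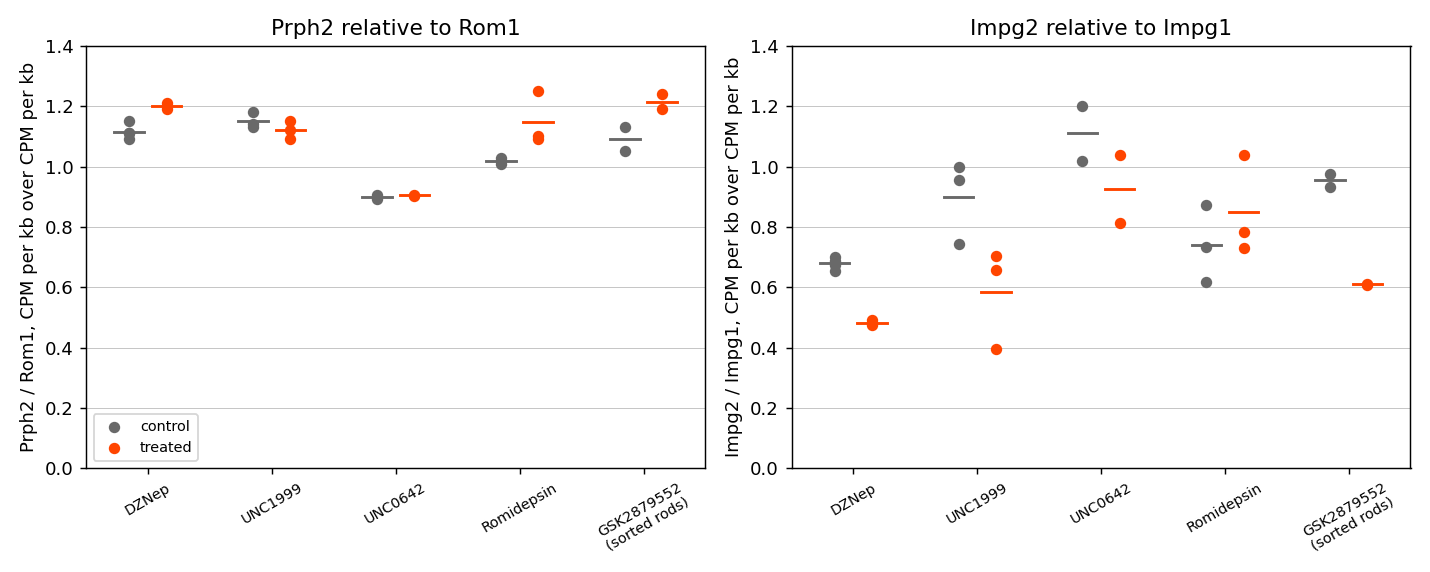
Ratio of Prph2 to Rom1 (left) and of Impg2 to Impg1 (right), as CPM per kb of exon, in every library; lines are group means, grey controls and orange treated samples. The left ratio stays between 0.891 and 1.25 and is higher in treated samples after DZNep, Romidepsin and GSK2879552 with no overlap. The right one is lower in treated samples after DZNep, UNC1999 and GSK2879552 with no overlap.

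In sorted rods the genes were more abundant, and GSK2879552 changed none of them by the test. The 2 control samples held 5658 and 8535 CPM of Prph2 and 6799 and 6382 CPM of Rp1 on the common scale. The mean of Rp1 was 8.70 times the median of the control retinas, that of Prom1 4.75 times, that of Rom1 4.05 times and that of Impg1 1.49 times. These libraries differ from the retinas in strain, in sorting and in the library kit, and the ratios are a description. The sorted samples had 465 to 771 CPM of Müller glia genes in sum, where the retinas had at least 7154 CPM, and of the 20 RPE genes 9 were at 0 in both controls and 5 of these, Rpe65, Ttr, Tyr, Mlana and Oca2, in all 4. Other genes of that list were present in the sorted controls, such as Krt18 (453 CPM), Trpm1 (71.7 CPM), Rlbp1 (36.6 CPM), Stra6 (4.68 CPM) and Rdh5 (3.86 CPM), and the list summed to 438 to 784 CPM in controls and 535 to 768 CPM in treated samples. Rod genes summed to 66413 to 104225 CPM, and the 25 genes of that list were all present. Cone genes summed to 3586 to 5397 CPM in the sorted controls and 2301 to 2848 CPM in the treated samples, against 1600 to 3456 CPM in the retinas. Unlike the Müller glia genes, they were thus not depleted in the sorted samples.

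After GSK2879552 no gene of the 14478 tested passed (0.00% called higher), and none of the 8 had an unadjusted p under 0.05; the likelihood ratio test called 46 genes higher and 25 lower and DESeq2 26 and 13, none of the 8 among them. Prph2 was at 5519 and 7900 CPM in controls and at 8282 and 6852 CPM in treated samples (0.17 ± 0.262, adjusted p = 0.990). Rom1 was at 2488 and 3842 CPM and then at 3529 and 2805 CPM (0.00 ± 0.270, adjusted p = 1.00). For both genes the 2 controls differed more from each other than the groups did. Both treated samples were above both controls for 4 genes, Abca4, Prom1, Rp1 and Impg1, where this held for 15.9% of all genes, with log2 fold changes of 0.36, 0.10, 0.14 and 0.23. Tulp1 was at 1458 and 1628 CPM and then at 1668 and 1403 CPM (-0.01, adjusted p = 0.999). The median of the 8 was 0.12.

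Impg2 had the lowest log2 fold change of the 8 genes in the sorted rods, without passing the test. It was at 704 and 738 CPM in controls and at 522 and 556 CPM after GSK2879552 (-0.42 ± 0.195, adjusted p = 0.987). Both treated samples were below both controls, as for 17.3% of all genes. The other outer segment genes had a median of 0.02 with none passing, from Rpgr (-0.58, adjusted p = 0.987) to Rp1l1 (0.31, adjusted p = 0.987). Of 13 cone genes 12 had lower values in the treated samples (median -0.92, summed level 3586 and 5397 CPM in controls against 2301 and 2848 CPM), 0 of them passing and none at 0; their part in the value of Impg2 was not tested.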

How the data were processed

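RNA-seq was analysed for 22 whole retinas and 4 samples of sorted rods of rd10 mice. Per the study's methods and the submitters' processing notes, BBDuk trimmed the reads, HISAT2 2.2.1 placed them on NCBIM37, and HTSeq 0.11.2 counted them on the genes of Ensembl release 67. The authors deposited raw read counts, and these counts were used as deposited. Retina libraries were made with a stranded mRNA kit and those of sorted rods with SMART-Seq. Samples were grouped by their titles; in the genotype and UNC1999 labels a trailing number grows from sample to sample, and it was not used. No replicates were copies of each other (chi-square per gene of at least 3.72 in 23 pairs).

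The 8 genes and all gene lists were chosen with earlier results of these data known. Symbols and exon lengths were taken from GENCODE M1 on NCBIM37, for 37205 of 37991 genes, and promoters from RefSeq on GRCm38.p6. Each treatment was compared with its own controls in edgeR 4.0.16 (R 4.3.3), with filterByExpr, TMM factors and the quasi-likelihood test in place of the study's likelihood ratio test; p-values were adjusted by Benjamini-Hochberg over all genes of a comparison. Standard errors were derived from the fold change and its F statistic. Treatments were compared in 1 fit of 22 retinas. P-values measure the spread between these samples. Levels between experiments and per kb were scaled over all 26 libraries. Log2 CPM used a prior count of 2.

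From the other lists, genes with the largest and smallest change in a comparison described are named, and the 5 genes most like the members; other genes named, such as RPE markers at 0, were chosen after their values were seen. A few genes that this rule names are not reported here. On simulated counts with 200 genes changed, the test called 183 of them after DZNep, 177 after UNC1999, 159 after UNC0642, 162 after Romidepsin and 91 in sorted rods, and 24, 15, 30, 14 and 17 unchanged genes. As alternatives, DESeq2 1.42.0, the likelihood ratio test, RLE factors, other filters (none, or at least 10 counts in every library), the study's fold threshold, a replicate block, all 22 retinas in 1 fit, a rod list of 1 gene fewer, adjustment over all 6 pairs together and leaving out each library were run; the likelihood ratio test with the fold threshold was chosen after seeing the data. Python 3.11.15 with pandas 2.3.3 and matplotlib 3.10.9 made the tables and figures.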

Additional observations from a re-analysis of the deposited data

Results flagged for a closer look

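The values of Impg2 lay on opposite sides of their controls in different experiments. Every treated retina lay above every control after DZNep (log2 fold change 0.54) and after Romidepsin (0.55), as for 24.4% and 13.5% of all genes, whereas both GSK2879552-treated samples of sorted rods lay below both of their controls (-0.42, adjusted p = 0.987 in edgeR's quasi-likelihood test), as for 17.3% of all genes. The difference between these experiments was not tested, since the sorted rods differ from the retinas in strain, preparation and library kit. In the group of 4 DZNep controls no sample stood out by Dixon's criterion for any of the 8 genes.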

How the results depend on the processing

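All 8 genes passed after DZNep under every alternative except the study's fold threshold (5 genes with either test) and those that cost Impg2 its call: 1 fit of all retinas (adjusted p = 0.0503) and leaving out control 2 or a treated retina. After UNC1999 the count moved from 1 to 7 with the likelihood ratio test, DESeq2 or no filter, to 6 in 1 fit of all retinas and to between 0 and 7 on leaving out a library (median 0.64 to 1.03). Of all genes, 2.35% were called higher with no filter and 0.0253% to 8.31% on leaving out a library. After Romidepsin the count moved from 1 to 3 with the likelihood ratio test or DESeq2, to 2 in 1 fit of all retinas, to 0 with the fold threshold under either test and to between 0 and 3 on leaving out a library. Of all genes, 8.92% were called higher in the 1 fit and 0.00% to 1.97% on leaving out a library. For the fold threshold no share over all genes is given in any comparison. After UNC0642 no filter gave 3 genes, and leaving out a library gave medians of 0.00 to 0.39; in sorted rods these were 0.01 to 0.16. The cause of these shifts was not tested.

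Leaving out a library gave between 1 and 3 genes relative to the rod list for UNC1999. On that scale 82.3% of all genes were called lower in the main fit, and no share is given for the fits without a library. For DZNep and UNC0642 such counts are not given, since some of these fits leave 1 sample in a group. Between treatments the likelihood ratio test called 1 gene for DZNep and UNC0642 and 1 for Romidepsin and UNC0642; leaving out a library gave at most 1 for DZNep and UNC0642, 1 for UNC1999 and UNC0642 and 2 for UNC1999 and Romidepsin, and at least 0. The direction reversed for the following values. On leaving out a library, Impg2 ran from -0.26 to 0.11 after UNC1999 and from -0.08 to 0.07 after UNC0642, where Abca4 ran from -0.03 to 0.28 and Prom1 from -0.24 to 0.07. In sorted rods Prph2 ran from -0.06 to 0.45, Rom1 from -0.28 to 0.35 and Tulp1 from -0.13 to 0.11 (0.00 with RLE, 0.01 with at least 10 counts). Relative to the rod list, Impg2 ran from -0.04 to 0.33 after Romidepsin and Prom1 in sorted rods from -0.10 to 0.24.

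With the replicate number as a block, 8 genes passed after DZNep, where 5.58% of all genes were called higher. None of the 8 passed after UNC1999, UNC0642 or Romidepsin or in sorted rods. After UNC0642 the block called 244 of 16321 genes higher and 345 lower, where without it 0 were called either way. The deviations of same-numbered samples from their group means had correlations of -0.279 to 0.230. With UNC0642 these were 0.213 for the same-numbered samples and -0.213 for the others. With so few samples per group, the correlations cannot decide whether the numbers pair the samples.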
